A study of Mus musculus with 16 samples.

Results

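Accessible chromatin was examined around 6 genes that take part in the fate choice of fetal male germ cells: *Nanos2*, *Nodal*, *Tdgf1*, *Lefty1*, *Lefty2* and *Cyp26b1*. They are 6 of 21883 protein-coding genes of the RefSeq gene table. A peak was counted for a gene when it met the gene's outer bounds or the 20 kb on either side, and these stretches (41.4 to 62.5 kb) are called windows below. The windows held 24 separate peak regions, of 107032 over the whole genome, where a region is a set of overlapping peaks from any of the lists.

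The data are ATAC-seq peaks, that is, places where a transposase inserted adapters often because the DNA was open. Germ cells came from testes of Mvh-Venus transgenic mice, which carry a fluorescent germ-cell reporter, that were *Morc1* (+/-) or *Morc1* (-/-), called heterozygous and knockout here. MORC1 is known for the silencing of transposons in the male germ line. The fetal stages were E13.5 and E16.5 and the stages after birth P0 and P3, all named by the day. Each of the 8 groups had 2 samples (16 in all), every group carrying the reporter, and there was no wild-type group. How the cells were isolated and whether animals were pooled is not given in the sources used here. The authors deposited 1 list per group, so no value has a spread between samples and no test of stage or genotype was possible. Each list gives peak positions only, with no height. The P0 lists of the genotypes were identical and so were the P3 lists, which left 6 distinct lists, with P0 and P3 carrying no genotype. A peak that is missing from a list fell below the authors' threshold, which does not show that the DNA was closed.

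NANOS2 is an RNA-binding protein that acts with the CCR4-NOT deadenylase complex to hold male germ cells on the male path and away from meiosis. NODAL is a secreted ligand of the TGF-beta family. It binds activin receptors together with the co-receptor CRIPTO, the product of *Tdgf1*, and acts through SMAD2 and SMAD3. LEFTY1 and LEFTY2 are secreted inhibitors of NODAL and are themselves induced by it. In the fetal testis this pathway is active in germ cells for a short time after sex determination. CYP26B1 degrades retinoic acid, the signal that brings germ cells into meiosis, and is known to be made by Sertoli cells, the supporting cells of the testis.

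The promoter sequences below show how differently the starts of these genes are built. Each runs from 250 bases before to 50 bases after the start, 5′ to 3′ on the gene's strand, from RefSeq (GRCm38.p6). *Nanos2* had no start peak in any list, *Nodal* had one in 4 lists, and *Tdgf1* had peaks at different distances before its start at different stages. Capitals mark, in *Nodal*, the 72 bases that lay in a peak of at least 1 list, and in *Nanos2* and *Tdgf1* matches to the searched motifs.
Nanos2, chr7:18987274-18987573, plus strand: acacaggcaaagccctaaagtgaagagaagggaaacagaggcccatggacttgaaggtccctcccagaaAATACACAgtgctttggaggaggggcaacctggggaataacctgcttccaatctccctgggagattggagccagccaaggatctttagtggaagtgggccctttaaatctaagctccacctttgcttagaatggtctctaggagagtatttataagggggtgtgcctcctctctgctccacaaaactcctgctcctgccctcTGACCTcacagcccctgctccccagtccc
Nodal, chr10:61417722-61418021, plus strand: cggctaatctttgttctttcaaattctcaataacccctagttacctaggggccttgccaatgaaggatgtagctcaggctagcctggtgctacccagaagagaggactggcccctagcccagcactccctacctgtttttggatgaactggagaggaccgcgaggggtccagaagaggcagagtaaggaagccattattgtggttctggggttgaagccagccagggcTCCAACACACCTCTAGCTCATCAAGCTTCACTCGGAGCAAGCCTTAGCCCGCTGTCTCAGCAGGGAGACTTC
Tdgf1, chr9:110946109-110946408, minus strand: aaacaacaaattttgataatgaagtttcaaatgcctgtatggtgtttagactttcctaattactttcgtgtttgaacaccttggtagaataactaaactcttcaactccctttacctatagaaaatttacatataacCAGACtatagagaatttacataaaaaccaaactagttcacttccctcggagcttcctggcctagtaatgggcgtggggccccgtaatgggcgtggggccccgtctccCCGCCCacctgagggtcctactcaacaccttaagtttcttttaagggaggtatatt

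The *Nanos2* promoter held 0 CpG dinucleotides, *Nodal* 5, *Tdgf1* 7 and *Cyp26b1* 9, against a median of 7 (quartiles 3 and 20) over all 32851 promoter entries. Promoters with few CpGs seldom had a peak in these cells. Among the 7084 protein-coding genes with at most 9 CpGs in this stretch, 16.4% to 22.8% had a start peak, depending on the list, against 88.5% to 91.8% of the 10407 genes with more. Of the 875 genes with 0 CpGs, as in *Nanos2*, 1.03% to 4.11% had one. *Lefty1* and *Lefty2* were not matched to a promoter entry.

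Letters of known motifs were searched on both strands of the 4 promoters. The *Nanos2* promoter held AATACACA, a FOXH1 sequence, from position -181 (counted from the start), found in 0.980% of all promoter entries. It also held the nuclear receptor core AGGTCA on the reverse strand at position 22, found in 16.3% of entries. *Tdgf1* held the SMAD core CAGAC at position -113 (in 49.6% of entries) and a GC box, GGGCGG, on the reverse strand at position -6 (in 35.7%). *Cyp26b1* held CAGAC on the reverse strand at -115 and 3 GC boxes, at -174 (reverse strand), -165 and -34. None of the 8 motifs was in the *Nodal* stretch. The others, which none of the 4 promoters held, were the SMAD element GTCTAGAC (0.213% of entries), the FOXH1 sequence AATCCACA (0.855%), the CRE TGACGTCA (1.79%) and the octamer ATGCAAAT (1.74%). GTCTAGAC does not contain CAGAC on either strand, and a match describes letters only.

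The lists held 39559 to 67258 peaks, nearly all of 501 bp, and depth is unknown. Start peaks of the germ-cell markers *Ddx4*, *Dazl*, *Mael*, *Sycp3* and *Piwil4* were in all 6 lists, *Dppa4* had one at P0 only and *Tdrd1* none. Of 7 Sertoli cell markers, 1 to 3 had a start peak in a given list. *Sox9*, *Amh*, *Gata4* and *Dhh* had none, *Wt1* had one in 5 lists, *Cldn11* in 6 and *Fgf9* in both E13.5 lists. Start peaks were found for 1 of 6 steroid cell markers, 2 of 4 endothelial, 0 of 3 macrophage and 0 or 1 of 3 red blood cell markers. Among all protein-coding genes with a known start, 60.0% to 63.8% had a start peak in a given list. For markers without a known start, among them *Dppa4*, *Sox9*, *Amh*, *Wt1*, *Gata4* and *Pecam1*, both outer ends were used. What part other cells have in the peaks below was not tested.

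Around *Nanos2* (gene ID 378430, chromosome 7, 18987524 to 18988962), no peak touched the gene in any list. The window held 2 peaks in each E13.5 list, 3 in each E16.5 list, 2 in the P0 list and 1 in the P3 list. The region found in all 6 lists lay 3.34 kb after the start, within 1000 bp of the start of the next gene, *Mypop*. A second region, 16.63 kb after the *Nanos2* start, lay at the start of *Irf2bp1* and was in both E13.5 lists and the E16.5 knockout list.

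The remaining 2 regions of *Nanos2* lay upstream, away from any gene start. One, 10.65 kb before the start, was in the E16.5 lists of both genotypes and in the P0 list, with peaks at 18976648 to 18977148 (E16.5 heterozygous), 18976569 to 18977069 (E16.5 knockout) and 18976626 to 18977126 (P0). It was missing from both E13.5 lists and from P3. In bulk samples like these, fewer cells with an open site and a less open site in each cell cannot be told apart. This distribution over the lists was shared by 6720 of the 107032 regions of the genome (6.28%). The other, 19.71 kb before the start, was in the E16.5 heterozygous list alone, as were 3.99% of all regions, and lay at the edge of the window.

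*Nodal* (gene ID 18119, chromosome 10, 61417972 to 61425338) was the only gene of the 6 with peaks both at its start and further inside the gene. The start peak lay at 61417954 to 61418454 in E13.5 heterozygous, 61418014 to 61418514 in E13.5 knockout, 61418002 to 61418502 in E16.5 knockout and 61417950 to 61418450 in P0 cells. Its centre was 0.23 to 0.29 kb after the start. In the printed promoter it took in 68, 8, 20 and 72 bases, so most of each peak lay downstream of that stretch. The E16.5 heterozygous list and the P3 list lacked it.

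A second *Nodal* region, 5.43 kb after the start and inside the gene, showed another order of stages. It was found in both genotypes at E16.5 and again at P0, and in neither E13.5 list nor P3, the same distribution as the region upstream of *Nanos2*. The remaining region, 18.42 kb before the start, was in every list except E13.5 heterozygous, which was true of 0.980% of all regions. The distribution of the start peak, both E13.5 lists, E16.5 knockout and P0, was rare, with 0.223% of all regions and 0.200% of protein-coding starts. The number of peaks in the *Nodal* window was 1 and 2 at E13.5 (heterozygous, then knockout), then 2 and 3 for E16.5, 3 for P0 and 1 for P3.

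*Tdgf1* (gene ID 21667, chromosome 9, 110939608 to 110946158, minus strand) had no peak inside the gene in any list, and 5 regions upstream of its start. At E13.5 the nearest peak lay 1.34 kb before the start in heterozygous cells (110947247 to 110947747) and 1.35 kb before it in knockout cells (110947255 to 110947755). Neither E16.5 list held a peak this near. At P0 and P3 a peak lay closer, 0.64 kb (110946552 to 110947052) and 0.56 kb (110946465 to 110946965) before the start. The earlier and the later region were 194 bp apart and did not overlap. The earlier one followed a common distribution (both E13.5 lists only, 6.93% of all regions). The later one, P0 and P3 only, was shared by 2.88% of regions. As a pattern of peaks within 1000 bp of the start it was shared by 0.400% of protein-coding starts. With 2000 bp the E13.5 peaks counted as start peaks too.

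Farther from *Tdgf1*, 3 regions lay inside the neighbouring gene *Lrrc2*. The one 7.71 kb upstream was in every list except E16.5 heterozygous, and the one 19.02 kb upstream was in E16.5 knockout, P0 and P3. The one 14.56 kb upstream was in E13.5 knockout alone. The *Tdgf1* window therefore held 2, 3, 0, 2, 3 and 3 peaks from E13.5 heterozygous to P3 in the order used above. The value of 0 was in E16.5 heterozygous cells, where 15.7% of protein-coding genes also had no peak in their window.

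*Lefty1* (gene ID 13590, chromosome 1, 180935022 to 180938401) had a peak at its lower outer end at E13.5 only. The peak lay at 180934559 to 180935059 in heterozygous and 180934443 to 180934943 in knockout cells, and its region also met the long noncoding RNA gene *Gm39715*. A region 10.11 kb below that end, inside *Gm39715*, was likewise in both E13.5 lists and no other. At the later stages a different region, 15.19 kb below the end and near an outer end of *Gm39715*, was in both E16.5 lists, P0 and P3, as were 8.93% of all regions. The fourth region, 7.50 kb above the end, lay at the start of *Tmem63a* and was in all 6 lists. *Lefty1* was the only gene of the 6 with peaks whose regions did not differ between the genotypes at either stage.

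*Lefty2* (gene ID 320202, chromosome 1, 180893108 to 180899107) had no peak inside the gene or within 1000 bp of either end. Its nearest region, 4.35 kb below the lower end, was in both E13.5 lists, E16.5 heterozygous and P0, a distribution found in 0.152% of all regions. The peak centre lay 4.23 and 4.25 kb below the end at E13.5, and 4.46 and 4.45 kb below it at E16.5 and P0. A region 18.88 kb below, near the pseudogene *Gm18036*, was in every list except E16.5 heterozygous.

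Of the other regions of *Lefty2*, 1 was in all 6 lists and 3 were each in 1 list. The single-list regions lay 15.31 kb below the end in E16.5 heterozygous cells, 18.69 kb above it at P0 and 20.87 kb above it in E13.5 knockout cells. *Lefty1* and *Lefty2* are close paralogs on the same chromosome. Their windows overlap, but 0 peaks were counted under both. How reads that fit both copies were treated is not given in the sources used here.

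*Cyp26b1* (gene ID 232174, chromosome 6, 84571414 to 84593908, minus strand) had the fewest peaks, 3 over the 6 lists against 12 to 18 for the other genes, in the longest window. Both E13.5 lists, the E16.5 knockout list and the P0 list held none. The share of protein-coding genes with an empty window in those lists was 19.5%, 20.1%, 14.4% and 12.1%. The E16.5 heterozygous list held peaks 3.27 kb (84590289 to 84590789) and 10.20 kb (84583363 to 84583863) after the start, inside the gene. The P3 list held one that overlapped the first, at 84590122 to 84590622. The first region's distribution, E16.5 heterozygous and P3, was shared by 0.205% of all regions. Of the Sertoli markers given above, 2 of 7 had a start peak in the E16.5 heterozygous list (*Wt1*, *Cldn11*), the same 2 in the knockout list, and 1 (*Cldn11*) at P3, with *Sox9* and *Amh* at none, and their part in the *Cyp26b1* peaks was not tested.

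**Figure D1:**
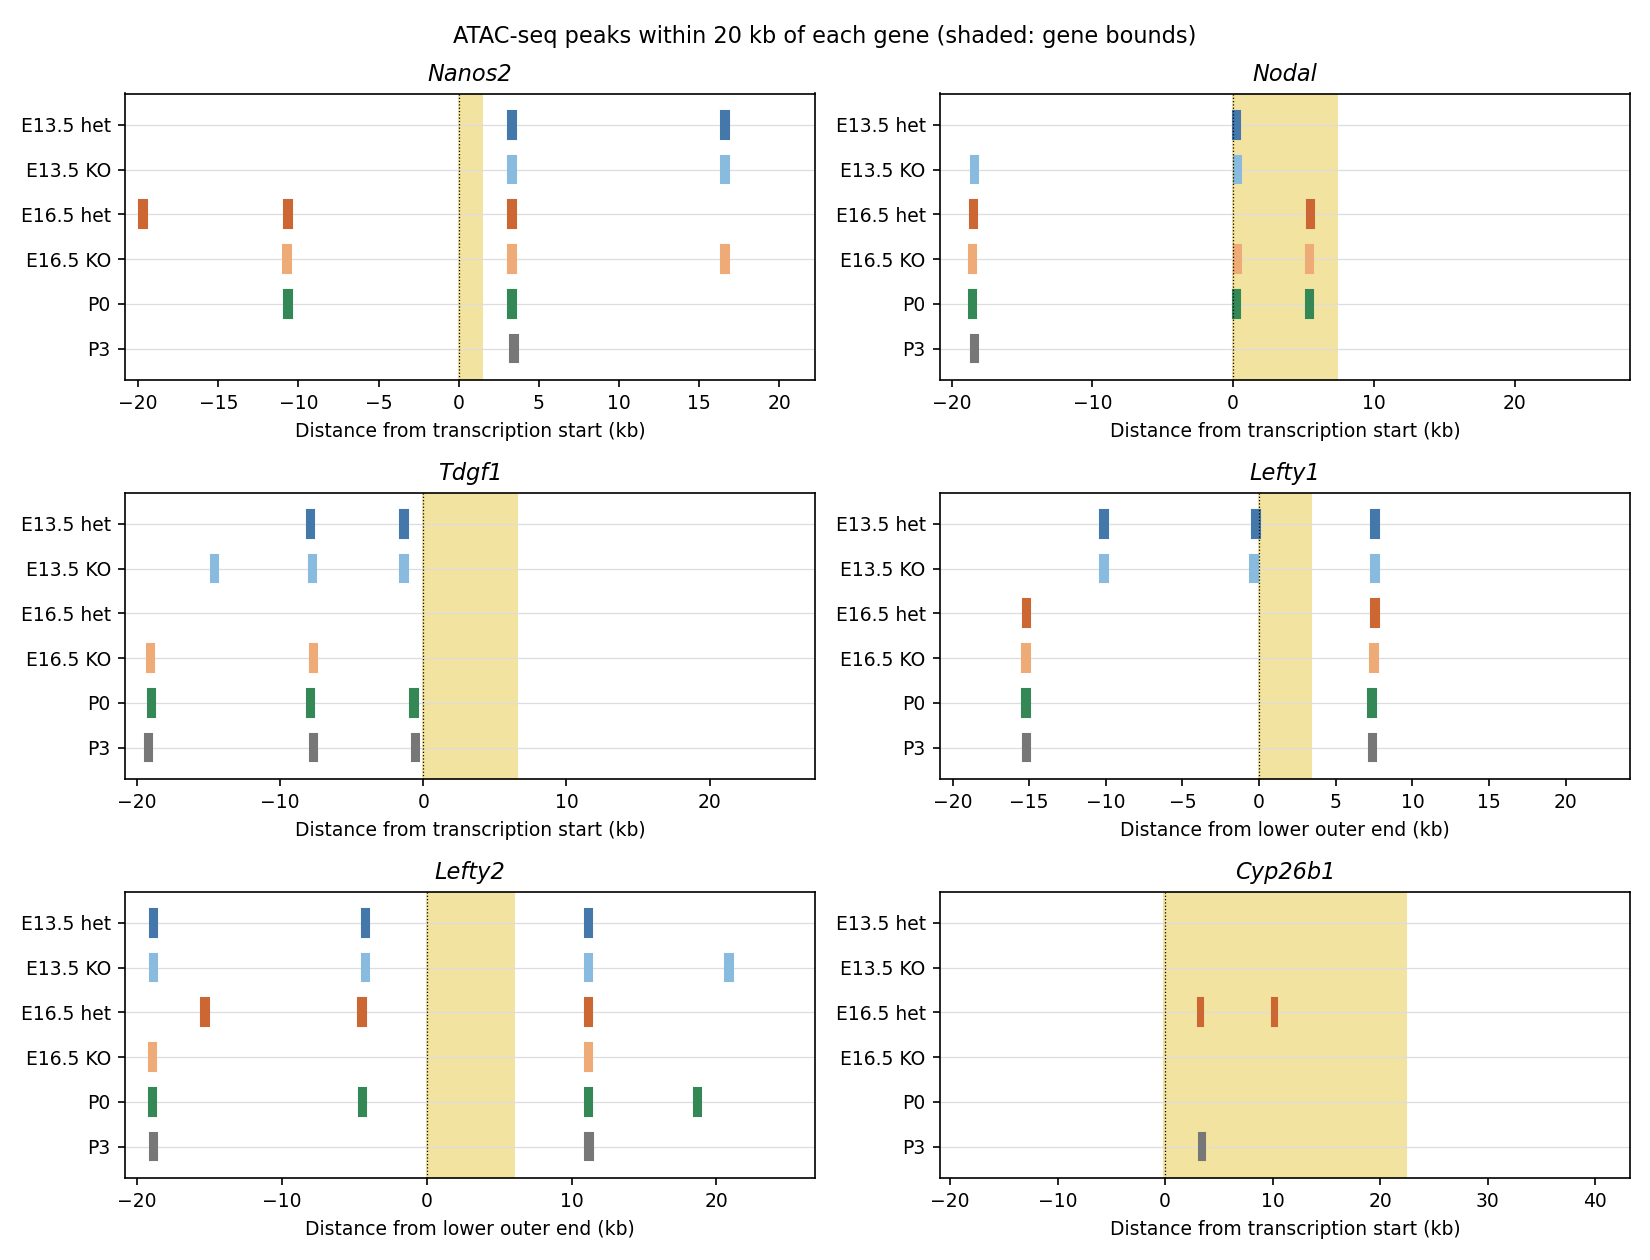
Peak positions in each of the 6 lists (rows) by distance in kb from the transcription start, or for Lefty1 and Lefty2 from the lower outer end (x axis); bars are peaks drawn at their width, shading marks the gene bounds, het is heterozygous and KO is knockout. Peaks at the Lefty1 end are in the E13.5 rows only, and the regions 3.34 kb after Nanos2 and 7.50 kb above Lefty1 appear in all 6 rows. Near the Tdgf1 start, the region 1.34 kb before it is in the E13.5 rows. A separate region, 0.64 kb before it and nearer, is in the P0 and P3 rows.

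The 6 windows were next set beside those of all protein-coding genes. A peak was present in the windows of 5 of 6 genes in the E13.5 heterozygous list (80.5% of all protein-coding genes) and 5 in the E13.5 knockout list (79.9%). The counts were 5 in E16.5 heterozygous (84.3%), 5 in E16.5 knockout (85.6%), 5 at P0 (87.9%) and 6 at P3 (83.7%). The windows held 11, 14, 12, 12, 14 and 10 peaks in the same order. That is 0.348 to 0.487 peaks per 10 kb, beside 0.238 to 0.302 over the windows of all protein-coding genes. The latter rate pools windows of every length, so long genes weigh more in it. Window length was not matched, and the rates do not show denser peaks around the 6 genes. The median number per window was 1.5 to 2.5 for the 6 genes and 2 in every list for all protein-coding genes.

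**Figure D2:**
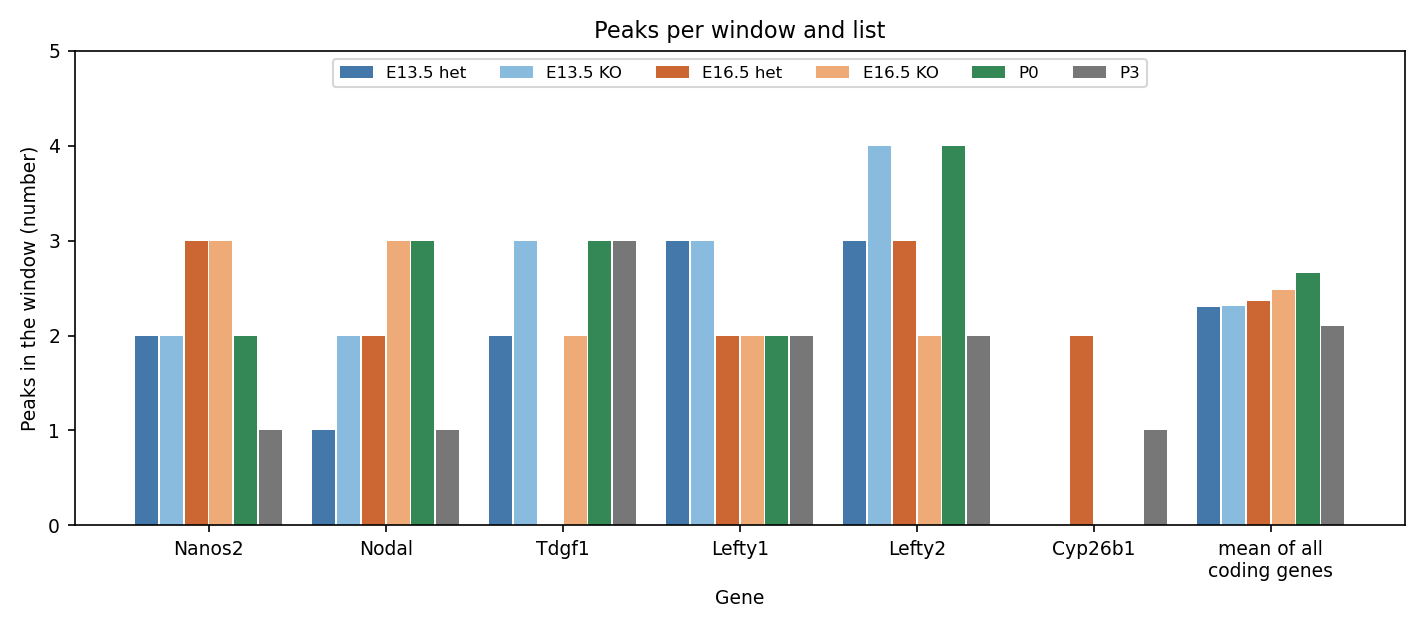
Number of peaks in the window of each gene (y axis) in each list (colours), beside the mean over all 21883 protein-coding genes (2.10 to 2.66). Each bar is 1 list and has no error. Cyp26b1 has 0 peaks in 4 lists, Tdgf1 has 0 in E16.5 heterozygous cells and Lefty2 reaches 4 in E13.5 knockout cells and at P0.

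Some of these regions belonged to the starts of neighbouring genes. Of the 24 regions, 8 lay within 1000 bp of a start or outer end of another gene, and these included all 3 regions found in every list, among them those at *Mypop* and *Tmem63a*. The median region of this kind was in 4.5 lists. Of the other 16 regions, 0 were in all lists, 9 were in 1 or 2 lists, and the median was 2.0. Over the whole genome 16.3% of regions were in all 6 lists, 33.1% in 1 and 21.0% in 2. These shares take regions at gene starts and elsewhere together, so they are not a like background for either kind. When only peaks nearest to the gene itself among protein-coding genes were counted, 5, 5, 5, 3, 5 and 2 peaks were left.

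Start peaks were counted in the same way. A peak lay within 1000 bp of the start of 2 of the 6 genes in E13.5 heterozygous cells (*Nodal*, *Lefty1*), beside 60.5% of the 17491 protein-coding genes with a known start, and of the same 2 in E13.5 knockout cells (60.9%). For *Lefty1* and *Lefty2* both outer ends were used. At E16.5 the count was 0 in heterozygous (61.5%) and 1 in knockout cells (*Nodal*, 62.3%). It was 2 at P0 (*Nodal*, *Tdgf1*, 63.8%) and 1 at P3 (*Tdgf1*, 60.0%). *Nanos2*, *Lefty2* and *Cyp26b1* had none in any list, as had 32.2% of protein-coding genes.

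Stage differences held in both genotypes at 6 regions. The 3 regions in both E13.5 lists and neither E16.5 list were those 1.34 kb before *Tdgf1*, at the lower end of *Lefty1* and 10.11 kb below it, and such regions made up 8.53% of the genome's regions. The 3 in both E16.5 lists and neither E13.5 list were those 10.65 kb before *Nanos2*, inside *Nodal* and 15.19 kb below *Lefty1*, a kind that made up 19.0% of regions. All 3 of the latter were still present at P0, and none of the former was. This was also the common course over the genome. Regions of the latter kind that were present at P0 made up 6.28% (without P3) and 8.93% (with P3) of all regions, most of the 19.0%. Regions in both E13.5 lists and no other made up 6.93%, most of the 8.53%.

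Of the E13.5 heterozygous peaks of these windows, 4 of 11 were found at E16.5 in the same genotype (36.4%, 95% Wilson interval 15.2 to 64.6, beside 56.7% of all peaks). In knockout cells the share was 8 of 14 (57.1%, interval 32.6 to 78.6, beside 60.6%). From E16.5 to P0, 8 of 12 heterozygous peaks (66.7%, interval 39.1 to 86.2, beside 78.0%) and 11 of 12 knockout peaks (91.7%, interval 64.6 to 98.5, beside 76.8%) were found again. From P0 to P3 this held for 9 of 14 (64.3%, interval 38.8 to 83.7, beside 55.7%). Each interval took in the share of all peaks. These intervals cover counting error over peaks only, and peaks of 1 list are not replicates.

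Between P0 and P3, 5 of the 24 regions were lost from the lists (27.6% of all regions) and 1 was gained (6.60%). Those lost were the one upstream of *Nanos2*, both *Nodal* regions at and inside the gene, and the *Lefty2* regions 4.35 kb below and 18.69 kb above its end. The region gained was the *Cyp26b1* region 3.35 kb after the start. At P3 *Nanos2* and *Nodal* each kept 1 peak, at the start of *Mypop* and 18.42 kb upstream.

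*Morc1* genotypes were compared at E13.5 and E16.5. At E13.5, 0 of 11 heterozygous peaks were missing from the knockout list (interval 0 to 25.9, beside 21.3% of all peaks), and 3 of 14 knockout peaks were missing from the heterozygous list (21.4%, interval 7.57 to 47.6, beside 19.6%). The 3 were those 18.42 kb upstream of *Nodal*, 14.56 kb upstream of *Tdgf1* and 20.87 kb above the lower end of *Lefty2*. All lay over 10 kb from the gene bounds, and with windows of 10 kb the count was 0. A peak in the heterozygous list only was thus found for 0 of 6 genes (25.3% of protein-coding genes), and one in the knockout list only for 3 of 6 (26.1%).

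At E16.5, 5 of 12 heterozygous peaks (41.7%, interval 19.3 to 68.0, beside 18.6%) and 5 of 12 knockout peaks (41.7%, interval 19.3 to 68.0, beside 23.5%) were in 1 genotype only. The first interval began just above the share of all peaks and the second took it in, and the choice of windows set which peaks entered. The heterozygous-only peaks fell to 3 of 6 genes (24.6% of protein-coding genes): 2 inside *Cyp26b1*, 2 below *Lefty2* (4.35 and 15.31 kb) and 1 upstream of *Nanos2* (19.71 kb). The knockout-only peaks fell to 4 of 6 genes (31.8%): 2 upstream of *Tdgf1*, and 1 each at the start of *Nodal*, at the start of *Irf2bp1* near *Nanos2*, and 18.88 kb below *Lefty2*. With windows of 10 kb, 3 of 7 heterozygous and 2 of 6 knockout peaks were in 1 genotype only. Of the 10 peaks, those knockout-only at *Nodal*, *Irf2bp1*, 7.71 kb from *Tdgf1* and 18.88 kb from *Lefty2* were in both E13.5 lists as well, as was the heterozygous-only one 4.35 kb from *Lefty2*. The matching share over all peaks of 1 genotype at E16.5 is not given here, so whether this is unusual is not known.

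Of the start peaks, only that of *Nodal* differed between the genotypes, at E16.5. It was in the knockout list and not the heterozygous list, as for 2.39% of protein-coding starts, while the reverse held for 1.53%. At E13.5, 0 of the 6 genes differed, with 1.57% of starts in the knockout list only and 1.18% in the heterozygous list only. The centres of the 11 regions shared at E13.5 lay a median of 20 bp apart between the genotypes (0 to 173 bp), and those of the 7 shared at E16.5 68.0 bp apart (12 to 89 bp). The knockout list was longer than the heterozygous list at E16.5 (57117 against 53687 peaks) and shorter at E13.5 (39559 against 40448). What part list length or depth has in these differences was not tested.

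**Figure D3:**
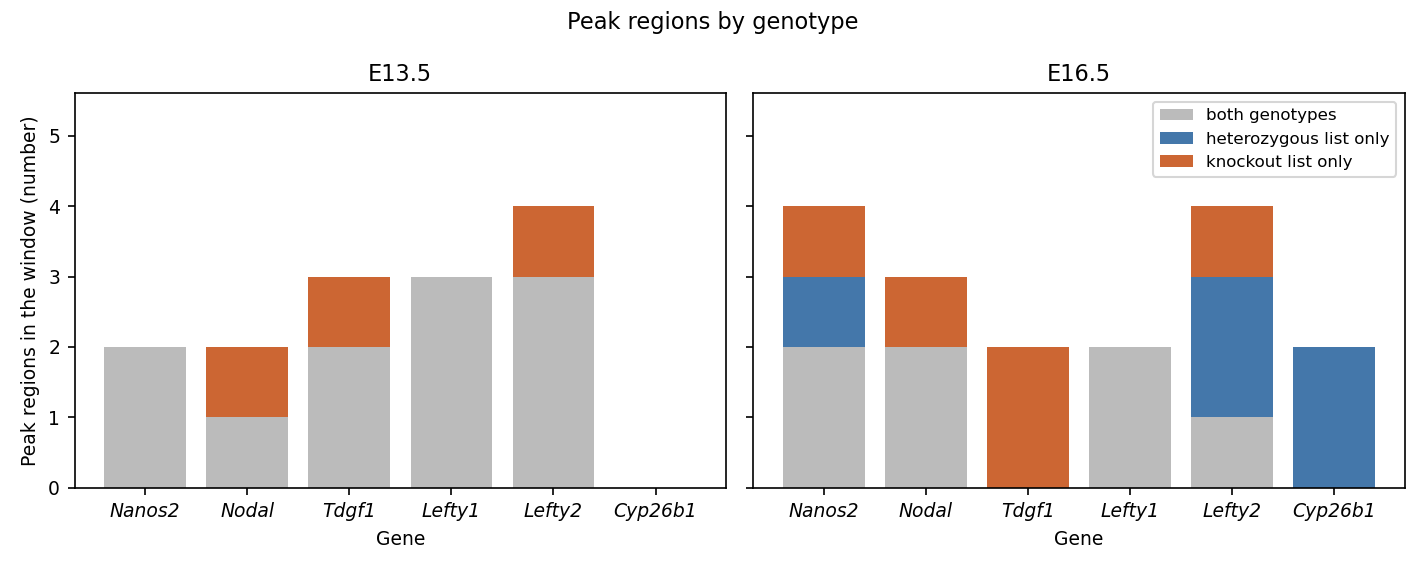
Number of peak regions in each gene's window (y axis) in both genotypes' lists (grey), the heterozygous list only (blue) or the knockout list only (orange), at E13.5 and E16.5. At E13.5 the 3 regions found in 1 genotype are all knockout-only, and at E16.5 there are 5 of each kind, with Tdgf1 all knockout-only, Cyp26b1 all heterozygous-only and Lefty1 shared.

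Other genes of these pathways were looked up in the same way. Of 51 listed genes, 41 to 46 had a start peak in a given list, 35 had one in all 6 lists and 1, *Cyp26c1*, in none. Over all protein-coding genes with a known start the share in a given list was 60.0% to 63.8%, and 32.2% had a start peak in none. The matching share for all 6 lists is not given here, so the counts for all 6 lists have no background. For 13 of the 51 genes both outer ends were used, which was not done for the shares over all protein-coding genes. The receptors *Acvr1b*, *Acvr1c*, *Acvr2a* and *Acvr2b* had one in all 6 lists, as had 6 of 8 transducers, among them *Smad2*, *Smad4* and *Foxh1*. Of the 7 genes listed as NANOS family members or partners 6 did, the exception being *Nanos3*, whose start peak was in E13.5 knockout only. Of the ligands and ligand-processing enzymes, *Furin*, *Pcsk6*, *Gdf1* and *Inhba* had one throughout. *Gdf3*, a NODAL-related ligand, had one in E16.5 heterozygous, P0 and P3, and *Inhbb*, an activin subunit, in both E16.5 lists.

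Of the 4 genes listed as inhibitors, *Smad7* and *Ltbp1* had a start peak in every list. *Cer1*, a secreted NODAL inhibitor, had a start peak in the P0 list and at E16.5 in both genotypes, and *Dand5*, another, in E13.5 knockout and at P0. Among retinoic acid genes, *Cyp26a1*, a second degrading enzyme, had one in both E16.5 lists. *Fgf9*, whose product maintains the male path in the fetal testis, had one in both E13.5 lists only, the same lists as *Lefty1*. *Stra8*, a retinoic acid target needed for meiosis, had one in E13.5 knockout, P0 and P3.

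The genotypes differed at the starts of 9 of the 51 genes at one stage or the other. At E13.5 the start peak of *Nanos3*, *Dand5*, *Crabp2*, *Rarg* and *Stra8* was in the knockout list only (5, or 9.80%). At E16.5 *Gdf3*, *Smad3* and *Rxrb* had it in the heterozygous list only (3, or 5.88%) and *Tgif1*, a SMAD corepressor, in the knockout list only (1 gene). The shares over all protein-coding starts are those given above for *Nodal*. With windows of 500 bp, 6 of the 9 had the same calls in the 4 fetal lists. The exceptions were *Dand5* and *Stra8*, which had no start peak at E13.5, and *Crabp2*, which then differed at E16.5. With 500 bp *Dand5* and *Inhbb* had a start peak in no list, and *Stra8* had one at P3 only. Another 4 genes then differed, which made 11 in all. *Dnd1* and *Dazl* had a start peak in the knockout list only at E13.5, *Eomes* in the heterozygous list only at E16.5, and *Rdh10* in the heterozygous list only at both stages.

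**Figure D4:**
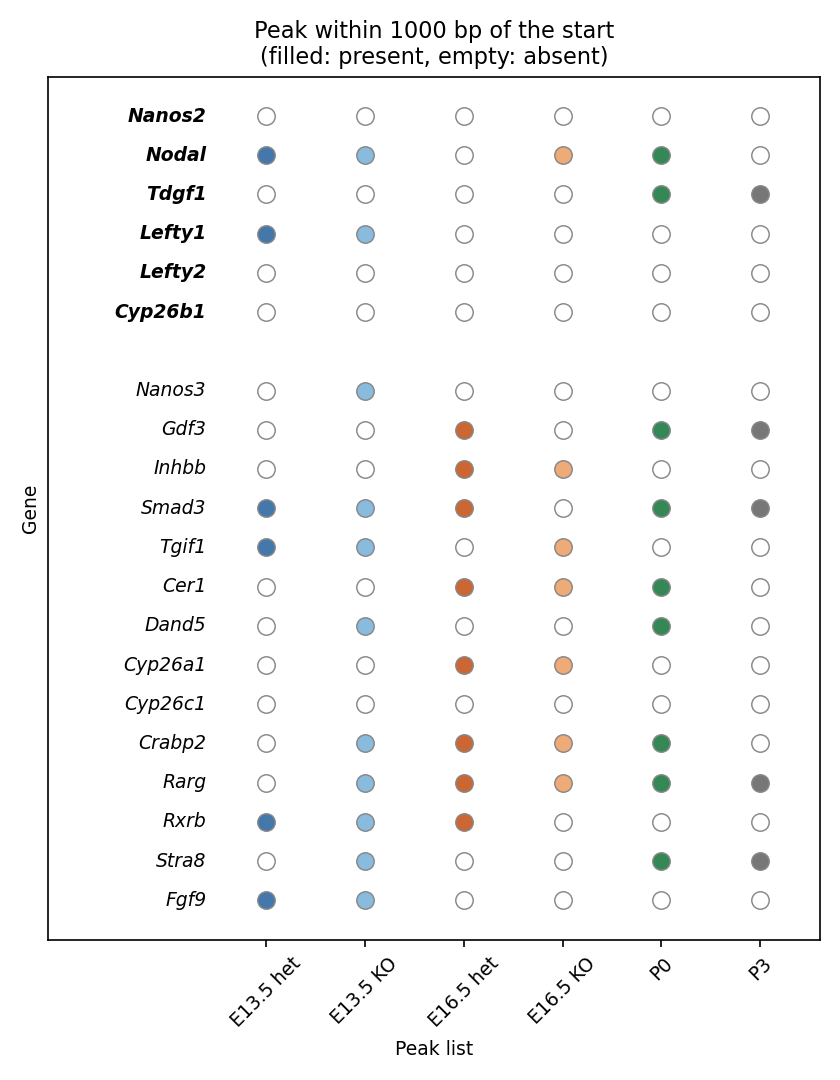
Presence (filled) or absence (empty) of a peak within 1000 bp of the start, or of either outer end where no start was known, in each list (x axis) for the 6 genes (bold) and the 14 pathway genes that differed between the genotypes or had a start peak in at most 3 lists. Nodal has 4 filled points, Tdgf1 and Lefty1 2 each and the other genes in bold 0; Fgf9 is filled in the same lists as Lefty1.

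Genes with the most similar run of peak counts over the 6 lists were looked up by Euclidean distance. *Nanos2* had the same 6 counts as 10 other protein-coding genes, of which *Ccin*, *Tubb2b* and *Mtfp1* had the nearest window length. *Nodal* shared its counts with 3 (*Mospd3*, *Lce1e* and *Gpnmb*), and *Lefty2* with 3, among them *B3galt4* and *Tef*. *Lefty1* shared its counts with 182 genes, among them *Snapc5*, *Ckb* and *Ubl5*. No gene had the counts of *Tdgf1*; the nearest, at a distance of 1.0, were *Gstp1*, *Atp1a4* and *Abca5*. *Cyp26b1* had too few peaks to compare.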

How the data were processed

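ATAC-seq of germ cells from 16 samples in 8 groups was deposited by the authors as 1 peak list per group, with chromosome, start and end and no other value. Per the submitters' processing notes, bcl2fastq 2.20, cutadapt 1.18, Bowtie2 2.3.4.1, deepTools 3.5.0 and HOMER 4.10 were used with build mm10. Caller settings, duplicate handling and pooling of samples are not given in the sources used here. Such settings and depth decide which weak peaks enter a list, and fixed widths hide peak breadth.

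Positions were read as GRCm38, the assembly behind mm10, and are printed 1-based. As a check, 52.4% to 54.9% of 21262 protein-coding starts lay within 250 bp of a peak, against 2.28% to 3.10% after a move of 10 kb. Starts and strands came from RefSeq promoter entries; for genes without one, both outer ends were used. Peaks were shared when they overlapped by at least 1 bp. Overlaps were tested on simulated data and against bedtools 2.31.1, with equal counts. Computations used Python 3.11.15, pandas 2.3.3 and numpy 2.4.6.

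The genes, lists and alternatives were chosen with earlier results of these data known. Named were the 6 genes with all their regions, pathway genes whose start peak differed between genotypes, up to 5 others with a start peak in at most 3 lists, and up to 3 genes with the most similar counts (for genes with at least 6 peaks; ties by window length). A gene of the pathway list was left out of its counts and is not reported here, nor is a neighbour of *Lefty2*. Shares have 95% Wilson intervals. Alternatives were windows of 10 and 50 kb, peaks nearest to the gene only, start windows of 500 and 2000 bp, a reciprocal overlap of 50%, and counting peaks within 500 bp as shared.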

Additional observations from a re-analysis of the deposited data

Results flagged for a closer look

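The number of peaks in the *Lefty2* window went up from heterozygous to knockout cells at E13.5 (3 against 4, a difference of 1) and down at E16.5 (3 against 2, a difference of -1). It is listed because the direction turned between the stages. This turn was not tested, since every group has 1 list.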

How the results depend on the processing

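No paired analysis was possible because the lists hold 1 set of positions for a group and no values of its samples; leaving out replicates was not possible for the same reason, and stricter thresholds need a peak score. Of 62 recomputed values, 39 stayed within 1.5 times the reported count, or within the interval of the reported share, and 23 moved. Every value under the other overlap rules and the other start windows was among those that stayed. With start windows of 2000 bp, though, *Tdgf1* also had a start peak in both E13.5 lists, which made 3 genes in each of them. The values that moved follow from the size of the window or the assignment of peaks. With windows of 50 kb the lists held 25, 26, 26, 23, 28 and 22 peaks (in the order E13.5 heterozygous and knockout, E16.5 heterozygous and knockout, P0, P3). With windows of 10 kb they held 9 in E13.5 knockout, 7 and 6 in the E16.5 lists, 8 in the P0 list and 6 in the P3 list. Counting peaks nearest to the gene left 5, 5, 5, 3, 5 and 2. Peaks in 1 genotype only became, with 50 kb, 4 heterozygous and 5 knockout at E13.5 and 9 heterozygous at E16.5, and with 10 kb, 0 knockout at E13.5 and 3 heterozygous and 2 knockout at E16.5.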
